A study of Homo sapiens with 12 samples.

Results

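Glycolysis and hypoxia-inducible genes were described as a set of 39 named genes in HaCaT cells, a spontaneously immortalised human keratinocyte line. Members were the rows of the deposited count table whose symbol was on the list, and all 39 were found among 22545 rows. All 39 also passed the filter on low counts, which left 14207 genes in the test. The libraries fell into 4 groups of 3 by treatment label: cells given M5 and lefamulin ("lefamulin libraries"), cells given M5 and retapamulin ("retapamulin libraries"), cells given M5 alone ("M5 libraries") and untreated cells ("untreated libraries"). All 4 groups share the HaCaT line, labelled WT for genotype. M5 is described in the series as an inducer; the labels give neither its composition nor any dose, time, solvent or oxygen level, and no solvent control was labelled. Lefamulin and retapamulin are pleuromutilins, antibacterial drugs that act on the bacterial ribosome. HaCaT is 1 line grown in culture, and nothing in the labels says that replicates came from separate cultures, so the p-values may measure only technical spread.

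Glycolysis converts glucose to pyruvate, which lactate dehydrogenase reduces to lactate when pyruvate is not passed on to mitochondria. Hypoxia-inducible factors (HIFs) pair an oxygen-regulated alpha subunit, HIF1A or EPAS1, with ARNT. Oxygen-dependent prolyl hydroxylases of the EGLN family mark the alpha subunits for destruction through VHL, so that most control of HIF activity lies in protein stability, which RNA levels do not measure. When the alpha subunits persist, HIFs raise transcription of glucose transporters, glycolytic enzymes, pyruvate dehydrogenase kinases and genes for vessel growth, mitophagy and collagen modification. Epidermal keratinocytes live in a tissue with little oxygen and draw much of their energy from glycolysis.

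Library totals ranged from 35110519 to 37520999 counts, and the members together took 1.36 to 1.67% of a library. Levels are given as CPM, the count scaled to a common library size, with sizes adjusted by the trimmed mean of M-values, and levels of different genes are compared per length, as the deposited FPKM. A gene is said to have risen or fallen where edgeR's quasi-likelihood test gave a Benjamini-Hochberg adjusted p under 0.05 over all 14207 genes. Changes are log2 fold changes with their standard error. All 6 keratinocyte markers were detected, with summed levels of 1438 to 1462 CPM in lefamulin libraries, 1592 to 1607 in retapamulin libraries, 1622 to 1664 in M5 libraries and 2144 to 2181 in untreated libraries. Against untreated libraries, KRT5 carried the lower sums, with means of 454 ± 8.12 CPM in lefamulin, 436 ± 12.4 in retapamulin, 637 ± 25.3 in M5 and 1631 ± 46.3 in untreated libraries (SD, n = 3 each). It did not carry the lower sum of lefamulin against retapamulin libraries. Of the 6 markers, 4 rose in M5 against untreated libraries and 2 fell. KRT14 was low throughout, with means of 0.796 CPM in lefamulin, 0.730 in retapamulin, 3.43 in M5 and 8.52 in untreated libraries. Of the markers of other cell types, the 3 leukocyte markers summed to at most 0.0847 CPM and the 3 melanocyte markers to at most 2.44 CPM in any library. The 3 fibroblast markers summed to 15.3 to 16.9 CPM in lefamulin libraries, 9.31 to 11.1 in retapamulin libraries, 5.58 to 6.84 in M5 libraries and 6.997 to 7.88 in untreated libraries, with COL3A1 at 0 in the lefamulin and retapamulin libraries. The 3 endothelial markers summed to 118 to 123 CPM in lefamulin libraries, 99.8 to 115 in retapamulin libraries, 117 to 122 in M5 libraries and 14.6 to 16.7 in untreated libraries. CDH5 made up nearly all of that sum, while PECAM1 had at most 1 count in any library. The part of these shifts in the members' changes was not tested.

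The set was higher in M5 libraries than in untreated libraries. Of the 39 members, 34 rose and 2 fell, where 28.3% of all genes tested rose and 26.9% fell. The members were chosen with earlier results of these data known, so these counts are a description only. The median change of the members was 0.68, against -0.02 over all genes tested, and 12 members rose at least 2-fold while none fell that far. SLC2A3, BNIP3, VEGFA, NDRG1, HIF1A, ADM and EPAS1 had the largest rises, from 3.06 down to 1.73. In these bulk samples, fewer cells of a type and less RNA per cell cannot be told apart.

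Both drugs came with a split of the set. In lefamulin libraries against M5 libraries, 23 members rose and 10 fell, where 33.6% of all genes rose and 34.3% fell, and the median change was 0.28 against -0.00 over all genes. In retapamulin libraries against M5 libraries, 23 rose and 15 fell, where 34.1% of all genes rose and 38.0% fell, and the median was 0.27 against -0.05. The members that fell made up 25.6% of the set with lefamulin and 38.5% with retapamulin, so the falling share with retapamulin was close to that of all genes. At least 2-fold rises numbered 11 with lefamulin and 9 with retapamulin, and at least 2-fold falls numbered 0 with lefamulin and 2 with retapamulin (EGLN3 and CA9). All 3 comparisons named so far use the M5 libraries, so a member that is high or low in M5 libraries enters each of them. Each of the 6 roles in the plot of fitted changes held members that rose and members that fell with each drug. The balance differed between roles. Of the 9 hypoxia-inducible members outside glycolysis, 7 rose and 1 fell with lefamulin (median 1.18), and 7 rose and 2 fell with retapamulin (0.95). Of the 5 HIF subunits and oxygen-dependent enzymes, 2 rose and 2 fell (0.16), and 2 rose and 3 fell (-0.88). The medians of the other roles ran from 0.06 to 0.81 with lefamulin and from -0.09 to 0.81 with retapamulin. With both drugs the HIF alpha subunits lay below 0 while EGLN1 and KDM3A lay above it, and PFKM and PFKFB3 lay below 0 while PFKFB4 lay far above it.

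**Figure D1:**
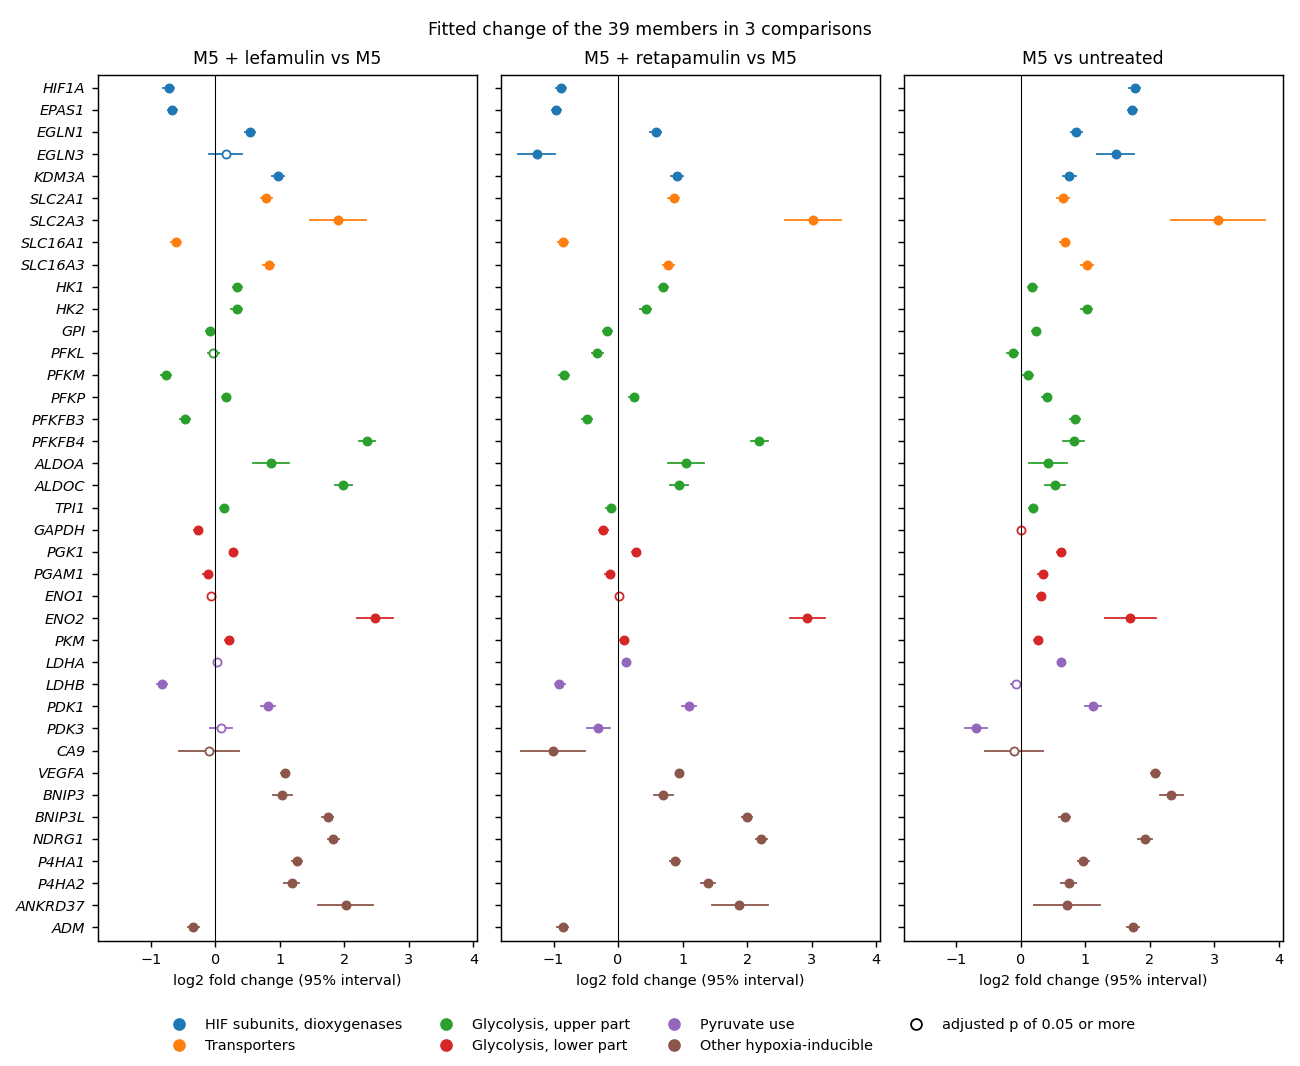
Log2 fold change (x axis) with its 95% interval for each of the 39 members (rows, coloured by role) in lefamulin against M5 libraries, retapamulin against M5 libraries and M5 against untreated libraries. Filled points passed the adjusted p of 0.05 and open points did not; 34 members lie above 0 and passed against untreated libraries, 23 with each drug against M5 libraries.

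The HIF alpha subunits were highest in M5 libraries. HIF1A had 453, 472 and 465 CPM in lefamulin libraries, 416, 417 and 414 in retapamulin libraries, 734, 745 and 817 in M5 libraries and 231, 209 and 234 in untreated libraries. The 4 groups did not overlap, and every library with a drug lay between the M5 and the untreated libraries. HIF1A thus rose in M5 libraries by 1.77 ± 0.04 (3.41-fold, adjusted p = 1.74e-21), fell with lefamulin against M5 by 0.72 ± 0.04 (adjusted p = 5.02e-14) and fell with retapamulin by 0.88 ± 0.04 (adjusted p = 8.33e-16). EPAS1, which encodes HIF2α, had 175, 177 and 171 CPM in lefamulin libraries, 142, 143 and 142 in retapamulin libraries, 277, 269.8 and 283 in M5 libraries and 84.9, 83.5 and 81.01 in untreated libraries. Its libraries stood in the same order, again without overlap. EPAS1 changed by 1.73 ± 0.03 in M5 against untreated libraries, and by -0.67 ± 0.03 with lefamulin and -0.96 ± 0.03 with retapamulin against M5 libraries. Per length, HIF1A made up 77.5% ± 0.431 in lefamulin libraries, 79.2% ± 0.0628 in retapamulin libraries, 78.2% ± 0.736 in M5 libraries and 77.8% ± 1.28 in untreated libraries (SD, n = 3 each) of the summed FPKM of both subunits. The share of HIF1A thus differed little between groups whose levels did not overlap.

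The oxygen-dependent enzymes among the members did not follow the alpha subunits as a group. EGLN1, the main prolyl hydroxylase acting on HIF1A, had 171, 164 and 169 CPM in lefamulin libraries, 177, 176 and 168 in retapamulin libraries, 115, 111 and 121 in M5 libraries and 67.2, 61.02 and 62.97 in untreated libraries. Here the libraries with a drug were highest, M5 libraries lay between and untreated libraries were lowest, with changes of 0.86 ± 0.04 in M5 against untreated libraries, 0.54 ± 0.04 with lefamulin and 0.59 ± 0.04 with retapamulin against M5 libraries. KDM3A, a histone demethylase and known HIF target, had 85.4, 96.6 and 94.2 CPM in lefamulin libraries, 90.5, 89.3 and 86.8 in retapamulin libraries, 48.2, 45.9 and 47.3 in M5 libraries and 28.6, 28.5 and 27.1 in untreated libraries. It showed the same order, with changes of 0.75 ± 0.05 in M5 libraries, 0.97 ± 0.05 with lefamulin and 0.91 ± 0.05 with retapamulin. EGLN3, a prolyl hydroxylase that is itself hypoxia-inducible, had 8.18, 10.4 and 9.63 CPM in lefamulin libraries, 2.86, 3.57 and 4.08 in retapamulin libraries, 8.58, 8.05 and 8.66 in M5 libraries and 3.30, 3.06 and 2.80 in untreated libraries. The lefamulin and M5 libraries overlapped and were high, while retapamulin and untreated libraries overlapped and were low. EGLN3 rose in M5 libraries by 1.47 ± 0.14 and fell with retapamulin by 1.26 ± 0.14 (adjusted p = 9.92e-09), whereas its change with lefamulin was 0.16 ± 0.13 (95% interval -0.10 to 0.41, adjusted p = 0.281).

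**Figure D2:**
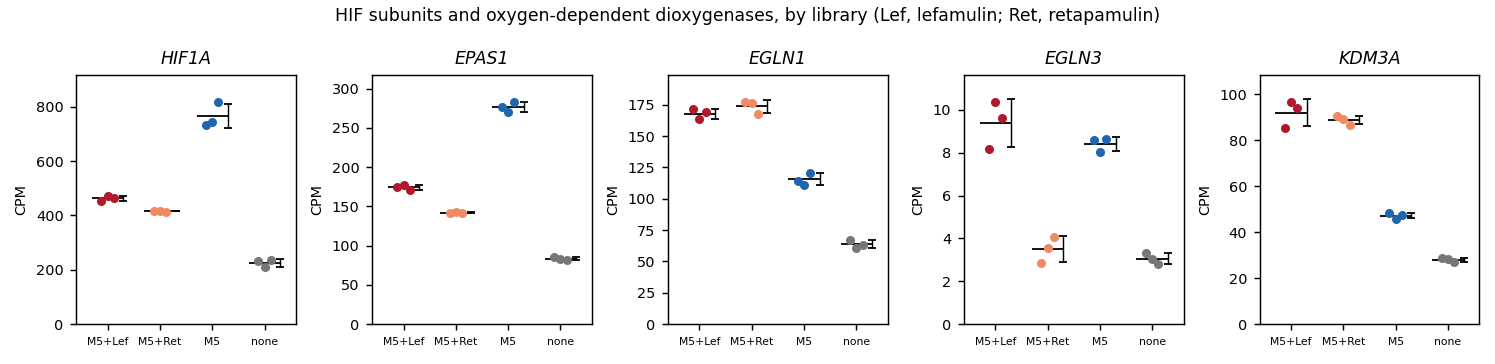
Level in CPM (y axis, linear from 0) of HIF1A, EPAS1, EGLN1, EGLN3 and KDM3A in each library (points) of the lefamulin (M5+Lef), retapamulin (M5+Ret), M5 and untreated (none) groups, with the mean (line) and SD (bar) of 3 libraries. HIF1A and EPAS1 peak in M5 libraries, with HIF1A at 734 to 817 CPM there, whereas EGLN1 and KDM3A are highest with either drug.

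Glucose enters keratinocytes mainly through SLC2A1 (GLUT1). SLC2A1 had 270.0, 246 and 259.7 CPM in lefamulin libraries, 267, 268 and 281 in retapamulin libraries, 151, 146 and 153 in M5 libraries and 93.9, 101 and 91.4 in untreated libraries. The libraries with a drug were highest and untreated libraries lowest, and SLC2A1 changed by 0.65 ± 0.04 in M5 against untreated libraries, 0.78 ± 0.04 with lefamulin and 0.86 ± 0.04 with retapamulin against M5 libraries. SLC2A3 (GLUT3), a high-affinity glucose transporter, was the member with the largest fitted rise in M5 libraries. Per length it stood at 1.11 FPKM in lefamulin libraries, 2.27 in retapamulin libraries, 0.307 in M5 libraries and 0.0386 in untreated libraries, the lowest of the members in M5 and untreated libraries. It had 3.98, 5.42 and 3.62 CPM in lefamulin libraries, 9.55, 10.9 and 7.89 in retapamulin libraries, 1.42, 1.07 and 0.992 in M5 libraries and 0.0767, 0.104 and 0.225 in untreated libraries, with no overlap between groups. The untreated values rest on 3, 4 and 9 counts. SLC2A3 changed by 3.06 ± 0.35 in M5 libraries, 1.90 ± 0.21 with lefamulin and 3.02 ± 0.21 with retapamulin; its near-identical copy SLC2A14 can share its reads, so its counts are uncertain.

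The monocarboxylate transporters moved in opposite directions with the drugs. SLC16A1 (MCT1), which carries lactate either way across the membrane, had 148, 153 and 153 CPM in lefamulin libraries, 128, 129.7 and 127 in retapamulin libraries, 229, 225 and 240.2 in M5 libraries and 149, 138 and 146 in untreated libraries. M5 libraries stood above all others, with a change of 0.68 ± 0.04 against untreated libraries, and the gene fell by 0.61 ± 0.04 with lefamulin and by 0.85 ± 0.04 with retapamulin. SLC16A3 (MCT4), the lactate exporter of glycolytic cells, had 137, 131 and 139.9 CPM in lefamulin libraries, 131, 129.6 and 132 in retapamulin libraries, 80.6, 75.6 and 73.7 in M5 libraries and 39.02, 36.5 and 36.8 in untreated libraries. It rose in all 3 comparisons, by 1.03 ± 0.04 in M5 libraries and by 0.83 ± 0.04 with lefamulin and 0.77 ± 0.04 with retapamulin against M5 libraries. As a share of the summed FPKM of both transporters, SLC16A3 took 55.5% ± 1.03 in lefamulin libraries, 58.7% ± 0.471 in retapamulin libraries, 31.6% ± 1.51 in M5 libraries and 26.5% ± 0.449 in untreated libraries (SD, n = 3 each). Shares of this kind are given as a description, since an exact permutation test of 3 libraries against 3 cannot give a two-sided p under 0.1.

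In the upper part of glycolysis, the hexokinases trap glucose in the cell by phosphorylating it. HK2, the hypoxia-inducible form, had 132, 126 and 128 CPM in lefamulin libraries, 135, 138 and 141 in retapamulin libraries, 104, 100.4 and 104 in M5 libraries and 53.8, 47.5 and 50.8 in untreated libraries. It rose 2.03-fold in M5 libraries (1.02 ± 0.04) and by a further 0.33 ± 0.04 with lefamulin and 0.43 ± 0.04 with retapamulin. HK1, the housekeeping form, averaged 253 ± 7.45 CPM in lefamulin libraries, 326 ± 2.01 in retapamulin libraries, 200.4 ± 7.55 in M5 libraries and 177 ± 4.43 in untreated libraries (SD, n = 3 each). Its rise was 0.18 ± 0.03 in M5 libraries, a call that was lost on library totals alone (0.06), and it rose by 0.34 ± 0.03 with lefamulin and 0.70 ± 0.03 with retapamulin. HK2 made up 32.4% ± 0.458 in lefamulin libraries, 28.5% ± 0.353 in retapamulin libraries, 32.6% ± 0.504 in M5 libraries and 21.2% ± 0.943 in untreated libraries (SD, n = 3 each) of the summed FPKM of HK1 and HK2. That share was higher in all M5-treated groups than in untreated libraries, and lower in retapamulin libraries, where HK1 had its largest rise, than in lefamulin or M5 libraries. GPI, which isomerises glucose phosphate to fructose phosphate, changed by 0.24 ± 0.03, -0.09 ± 0.03 and -0.17 ± 0.03 in the same 3 comparisons, and its fall with lefamulin was lost without lefamulin replicate 2 (-0.07).

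Phosphofructokinase commits sugar to glycolysis, and its 3 subunit genes moved apart. PFKM, the muscle-type subunit, had 62.9, 58.7 and 58.6 CPM in lefamulin libraries, 57.6, 57.99 and 55.3 in retapamulin libraries, 103, 99.9 and 102 in M5 libraries and 94.97, 93.7 and 93.7 in untreated libraries. Its level was lower in every library with a drug than in any M5 or untreated library, with falls of 0.76 ± 0.04 with lefamulin and 0.84 ± 0.04 with retapamulin. Its change in M5 against untreated libraries was 0.11 ± 0.04, and -0.0039 on library totals alone. PFKP, the platelet-type subunit, averaged 403 ± 9.21 CPM in lefamulin libraries, 425 ± 6.88 in retapamulin libraries, 360.0 ± 10.7 in M5 libraries and 274 ± 4.70 in untreated libraries (SD, n = 3 each), and rose by 0.40 ± 0.03, 0.16 ± 0.03 and 0.24 ± 0.03 in M5, lefamulin and retapamulin libraries, each against its own control. PFKL, the liver-type subunit, was 1 of the 2 members lower in M5 than in untreated libraries (-0.12 ± 0.04). That call was lost without M5 replicate 3 (-0.08), which left 1 member lower. Against M5 libraries PFKL changed by -0.03 ± 0.04 with lefamulin (adjusted p = 0.529) and -0.32 ± 0.04 with retapamulin. PFKP took 74.2% ± 0.694 in lefamulin libraries, 77.9% ± 0.286 in retapamulin libraries, 67.2% ± 0.623 in M5 libraries and 60.6% ± 0.346 in untreated libraries (SD, n = 3 each) of the summed FPKM of the 3 subunits.

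PFKFB3 and PFKFB4 make and break down fructose bisphosphate signals that set the activity of phosphofructokinase, PFKFB3 acting mostly as the kinase. PFKFB3 had 153, 147 and 149.6 CPM in lefamulin libraries, 145, 148 and 152 in retapamulin libraries, 210.4, 201 and 212 in M5 libraries and 122, 114 and 114 in untreated libraries. M5 libraries were highest, by 0.84 ± 0.04 over untreated libraries, and the gene fell by 0.47 ± 0.04 with lefamulin and 0.48 ± 0.04 with retapamulin. PFKFB4 had 51.8, 48.7 and 50.2 CPM in lefamulin libraries, 46.6, 44.2 and 43.8 in retapamulin libraries, 10.6, 9.89 and 9.06 in M5 libraries and 5.60, 5.78 and 5.37 in untreated libraries. Libraries with a drug stood far above both other groups: PFKFB4 rose 5.10-fold with lefamulin (2.35 ± 0.06, adjusted p = 1.87e-20) and 4.56-fold with retapamulin (2.19 ± 0.06, adjusted p = 5.83e-20), after a rise of 0.82 ± 0.08 in M5 libraries. Its share of the summed FPKM of both genes was 23.3% ± 0.164 in lefamulin libraries, 21.5% ± 0.914 in retapamulin libraries, 4.12% ± 0.340 in M5 libraries and 4.17% ± 0.204 in untreated libraries (SD, n = 3 each). The share in M5 libraries lay within the spread of the untreated libraries, both genes having risen by a like amount.

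Aldolase splits the sugar into triose phosphates. ALDOC, the brain-type aldolase, had 43.7, 41.6 and 41.2 CPM in lefamulin libraries, 19.9, 21.03 and 20.9 in retapamulin libraries, 10.98, 9.95 and 11.04 in M5 libraries and 7.03, 7.75 and 7.37 in untreated libraries. Lefamulin libraries were highest, retapamulin libraries next and untreated libraries lowest, with changes of 0.53 ± 0.07 in M5 libraries, 1.98 ± 0.07 with lefamulin and 0.95 ± 0.07 with retapamulin. ALDOA, the main muscle and ubiquitous aldolase, was listed at a low level of 8.24 ± 0.270 CPM in lefamulin libraries, 9.42 ± 0.998 in retapamulin libraries, 4.54 ± 0.372 in M5 libraries and 3.40 ± 0.703 in untreated libraries (SD, n = 3 each). Other annotated genes cover 53.5% of its exon bases in GENCODE v29, 42.3% on the same strand, so its counts are uncertain. ALDOA changed by 0.42 ± 0.14 in M5 libraries, 0.86 ± 0.13 with lefamulin and 1.05 ± 0.13 with retapamulin. Its call in M5 libraries was lost on library totals alone (0.30) and without untreated replicate 2 (0.31), untreated replicate 3 (0.37) or M5 replicate 3 (0.36). TPI1, the triose phosphate isomerase, changed by 0.19 ± 0.03, 0.14 ± 0.03 and -0.11 ± 0.03 in the same order of comparisons.

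The steps from GAPDH to PKM yield the ATP of the pathway, and most of their enzymes were among the most abundant members. Per length, GAPDH stood highest in every group, at 1770.3 FPKM in lefamulin libraries, 1712 in retapamulin libraries, 2201 in M5 libraries and 2369 in untreated libraries. LDHA came next, at 961 FPKM in lefamulin libraries, 959 in retapamulin libraries, 971 in M5 libraries and 679 in untreated libraries. PKM followed, at 841 FPKM in lefamulin libraries, 727 in retapamulin libraries, 751 in M5 libraries and 677 in untreated libraries, and LDHA and PKM did not differ beyond their spread in untreated libraries. GAPDH had 3118, 3094 and 3179 CPM in lefamulin libraries, 3132, 3239.8 and 3292 in retapamulin libraries, 3787, 3833 and 3681 in M5 libraries and 3591, 3918 and 3697 in untreated libraries. M5 and untreated libraries overlapped, with a change of 0.01 ± 0.03 (95% interval -0.05 to 0.07) that turned to -0.11 on library totals alone, while libraries with a drug were lower, at -0.27 ± 0.03 with lefamulin and -0.23 ± 0.03 with retapamulin. PGK1, the first ATP-forming kinase of the pathway, had 718, 699.8 and 700.2 CPM in lefamulin libraries, 706, 701 and 697 in retapamulin libraries, 593, 572 and 579 in M5 libraries and 367, 381 and 386 in untreated libraries. It rose by 0.62 ± 0.03 in M5 libraries, 0.28 ± 0.03 with lefamulin and 0.27 ± 0.03 with retapamulin. PGAM1, ENO1 and PKM rose by 0.34 ± 0.03, 0.32 ± 0.03 and 0.27 ± 0.03 in M5 libraries. With the drugs all 3 changed less than that or not at all by the test. PGAM1 changed by -0.12 ± 0.03 with lefamulin, a call lost without lefamulin replicate 2 (-0.08), and by -0.13 ± 0.03 with retapamulin. ENO1 changed by -0.06 ± 0.03 with lefamulin, which became a fall without M5 replicate 3 (-0.09) or untreated replicate 2 (-0.06), and by 0.02 ± 0.03 with retapamulin. PKM changed by 0.21 ± 0.03 with lefamulin and 0.09 ± 0.03 with retapamulin, the second turning to -0.05 on library totals alone. GAPDH, PGK1, PGAM1, ENO1, PKM, LDHA and LDHB have processed pseudogenes that can share their reads.

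ENO2, the neuronal enolase, stood apart from ENO1. It had 17.3, 17.2 and 17.4 CPM in lefamulin libraries, 21.8, 24.8 and 24.9 in retapamulin libraries, 3.47, 3.19 and 2.68 in M5 libraries and 0.894, 1.43 and 0.575 in untreated libraries, with no overlap between groups. ENO2 rose 3.23-fold in M5 libraries (1.69 ± 0.19, adjusted p = 5.04e-08), 5.56-fold with lefamulin (2.47 ± 0.13, adjusted p = 3.53e-14) and 7.64-fold with retapamulin (2.93 ± 0.13, adjusted p = 7.30e-16). It nevertheless stayed a minor enolase, with 1.33% ± 0.0318 in lefamulin libraries, 1.72% ± 0.118 in retapamulin libraries, 0.231% ± 0.0220 in M5 libraries and 0.0893% ± 0.0378 in untreated libraries (SD, n = 3 each) of the summed FPKM of ENO1 and ENO2.

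Lactate dehydrogenase is a tetramer of A subunits, from LDHA and favouring lactate formation, and B subunits, from LDHB. LDHA had 2427, 2480.3 and 2460.4 CPM in lefamulin libraries, 2566, 2616 and 2638 in retapamulin libraries, 2409, 2374 and 2423 in M5 libraries and 1512, 1569 and 1561 in untreated libraries. Untreated libraries were lowest and the 3 other groups lay close together, with a rise of 0.63 ± 0.03 in M5 libraries and changes of 0.03 ± 0.02 with lefamulin (adjusted p = 0.264) and 0.12 ± 0.02 with retapamulin, both of which turned below 0 on library totals alone (-0.01 and -0.02). LDHB had 144, 152 and 154 CPM in lefamulin libraries, 138, 145 and 141 in retapamulin libraries, 266, 259 and 269.5 in M5 libraries and 268, 285 and 288 in untreated libraries. M5 and untreated libraries overlapped, and every library with a drug was lower. LDHB changed by -0.08 ± 0.04 in M5 libraries (adjusted p = 0.0562), which became a fall without untreated replicate 1 (-0.11, making 3 members lower) and on library totals alone (-0.20), and fell by 0.82 ± 0.04 with lefamulin and 0.91 ± 0.04 with retapamulin. The share of LDHB in the summed FPKM of both was 7.24% ± 0.175 in lefamulin libraries, 6.49% ± 0.118 in retapamulin libraries, 12.4% ± 0.103 in M5 libraries and 18.8% ± 0.316 in untreated libraries (SD, n = 3 each), and so was lower in each M5-treated group than in untreated libraries. In the annotation, 33.4% of LDHB exon bases lie in another gene on the same strand, so its counts are uncertain.

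Pyruvate dehydrogenase kinases phosphorylate and shut down pyruvate dehydrogenase, the gate from pyruvate to the mitochondrial cycle. PDK1, the form induced in hypoxia, had 40.2, 39.7 and 36.7 CPM in lefamulin libraries, 48.8, 46.4 and 46.5 in retapamulin libraries, 22.96, 21.3 and 21.8 in M5 libraries and 10.2, 9.88 and 10.4 in untreated libraries. Its groups did not overlap, with rises of 1.12 ± 0.06 in M5 libraries, 0.82 ± 0.05 with lefamulin and 1.10 ± 0.05 with retapamulin. PDK3 had 16.5, 13.4 and 15.4 CPM in lefamulin libraries, 11.3, 11.6 and 11.8 in retapamulin libraries, 12.99, 14.5 and 15.3 in M5 libraries and 24.4, 23.1 and 21.6 in untreated libraries. It was the other member that fell in M5 libraries, by 0.69 ± 0.08, and against M5 it changed by 0.08 ± 0.08 with lefamulin (adjusted p = 0.404) and -0.31 ± 0.09 with retapamulin. PDK1 accordingly took 68.9% ± 2.49 in lefamulin libraries, 77.9% ± 0.843 in retapamulin libraries, 57.1% ± 2.85 in M5 libraries and 27.5% ± 1.59 in untreated libraries (SD, n = 3 each) of the summed FPKM of PDK1 and PDK3, as the plot of family shares shows beside the other families. All such shares depend on the gene lengths behind the deposited FPKM. For PDK3 that length was 13074 bases, against 4951 exon bases in GENCODE v29. For PDK1 it was 15188, against 14883. The level of the PDK1 share therefore depends on the length used.

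**Figure D3:**
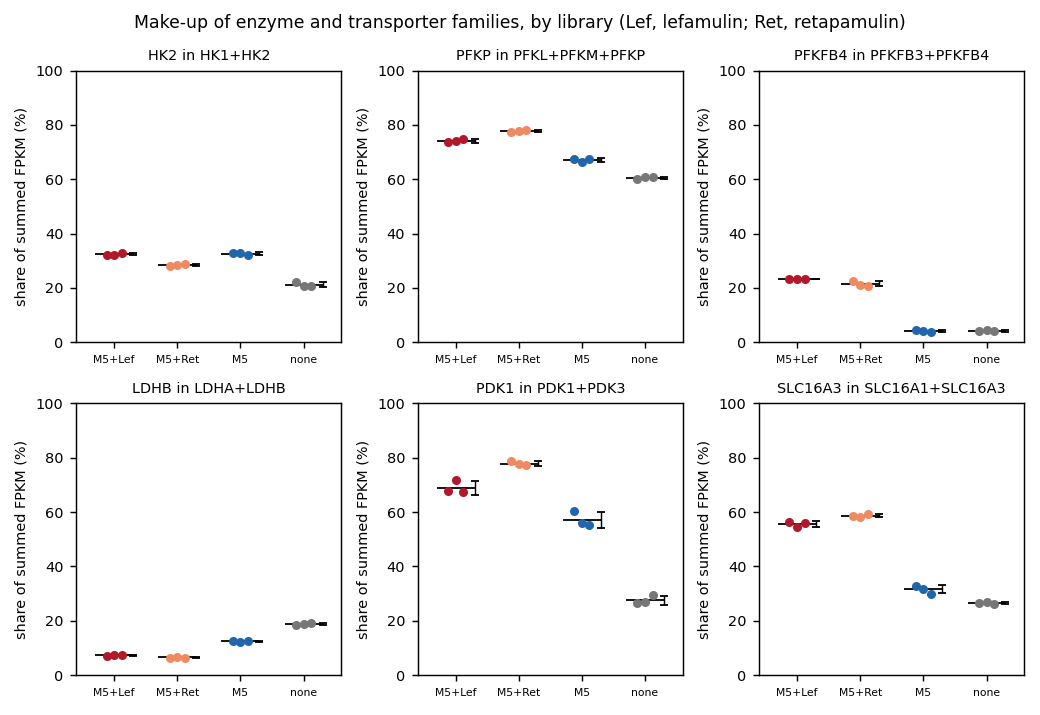
Share of 1 member in the summed FPKM of the listed members of its family (y axis, percent, 0 to 100) in each library (points) of the lefamulin (M5+Lef), retapamulin (M5+Ret), M5 and untreated (none) groups, with the mean (line) and SD (bar) of 3 libraries. Family genes outside the members, such as PFKFB2 and PDK2, are left out of the sums. PFKFB4 stands at 23.3% with lefamulin and 21.5% with retapamulin, against 4.12% in M5 libraries, and PDK1 at 57.1% in M5 libraries, against 27.5% in untreated libraries.

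Outside glycolysis, 9 members are known hypoxia-inducible genes with other functions. VEGFA, the main growth factor for blood vessels, had 399.7, 395 and 399 CPM in lefamulin libraries, 363, 365 and 361 in retapamulin libraries, 191, 188 and 185 in M5 libraries and 45.3, 43.8 and 44.4 in untreated libraries. The groups did not overlap; VEGFA rose 4.23-fold in M5 libraries (2.08 ± 0.03) and again with lefamulin (1.08 ± 0.03) and retapamulin (0.95 ± 0.03). ADM, the precursor of the vasodilator adrenomedullin, had 102, 104 and 104 CPM in lefamulin libraries, 74.3, 68.1 and 74.1 in retapamulin libraries, 135, 126 and 129.6 in M5 libraries and 39.4, 40.2 and 37.3 in untreated libraries. M5 libraries were highest, 3.34-fold over untreated libraries, and ADM fell by 0.34 ± 0.04 with lefamulin and by 0.85 ± 0.04 with retapamulin, while staying above untreated libraries with both (1.41 ± 0.04 and 0.89 ± 0.04). CA9, a membrane carbonic anhydrase widely used as a marker of hypoxia, was low throughout, at 2.54, 2.29 and 2.36 CPM in lefamulin libraries, 0.814, 1.95 and 1.08 in retapamulin libraries, 2.46, 2.67 and 2.60 in M5 libraries and 2.81, 2.77 and 2.72 in untreated libraries. Lefamulin and M5 libraries overlapped, untreated libraries were highest, and retapamulin libraries were lowest and spread widely. CA9 did not pass the test in M5 libraries (-0.11 ± 0.22, 95% interval -0.56 to 0.35) or with lefamulin (-0.10 ± 0.22, 95% interval -0.57 to 0.36) and fell with retapamulin (-1.01 ± 0.24, adjusted p = 6.08e-04). Opposite-strand exons of another gene cover 38.5% of its exon bases, and no source used here states the strand setting of the counting, so its counts are uncertain.

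BNIP3 and BNIP3L are mitochondrial receptors for mitophagy. BNIP3 had 26.95, 27.9 and 28.8 CPM in lefamulin libraries, 21.4, 22.3 and 22.5 in retapamulin libraries, 14.5, 13.5 and 12.7 in M5 libraries and 2.68, 2.70 and 2.70 in untreated libraries. Its largest step was between M5 and untreated libraries, 5.03-fold (2.33 ± 0.09, adjusted p = 3.33e-17), with further rises of 1.04 ± 0.07 with lefamulin and 0.70 ± 0.07 with retapamulin. BNIP3L had 163, 171 and 167 CPM in lefamulin libraries, 194, 204 and 202 in retapamulin libraries, 48.4, 50.7 and 51.3 in M5 libraries and 31.2, 32.4 and 30.6 in untreated libraries. Here the larger step came with the drugs, 1.74 ± 0.04 with lefamulin and 2.00 ± 0.04 with retapamulin, against 0.68 ± 0.04 in M5 libraries. BNIP3 made up 27.8% ± 0.540 in lefamulin libraries, 20.3% ± 0.210 in retapamulin libraries, 38.4% ± 2.26 in M5 libraries and 16.5% ± 0.389 in untreated libraries (SD, n = 3 each) of the summed FPKM of both. NDRG1, a stress-responsive gene linked to differentiation, had 256, 251 and 256 CPM in lefamulin libraries, 326, 336 and 345 in retapamulin libraries, 77.1, 66.03 and 72.3 in M5 libraries and 18.3, 18.98 and 19.6 in untreated libraries. It rose by 1.92 ± 0.05 in M5 libraries, 1.83 ± 0.04 with lefamulin and 2.22 ± 0.04 with retapamulin, without overlap of the groups.

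P4HA1 and P4HA2, the catalytic subunits of collagen prolyl hydroxylase, rose in all 3 comparisons. P4HA1 had 188, 191 and 182 CPM in lefamulin libraries, 149, 142 and 141 in retapamulin libraries, 80.2, 77.3 and 76.9 in M5 libraries and 40.98, 37.8 and 41.4 in untreated libraries, with changes of 0.96 ± 0.04 in M5 libraries, 1.26 ± 0.04 with lefamulin and 0.88 ± 0.04 with retapamulin. P4HA2 averaged 51.1 ± 2.69 CPM in lefamulin libraries, 59.02 ± 1.92 in retapamulin libraries, 22.6 ± 1.13 in M5 libraries and 13.5 ± 0.495 in untreated libraries (SD, n = 3 each), with changes of 0.74 ± 0.06, 1.18 ± 0.05 and 1.39 ± 0.05. Both subunits were thus highest in libraries with a drug. ANKRD37, a small ankyrin-repeat protein gene induced by HIF, averaged 5.98 ± 0.928 CPM in lefamulin libraries, 5.45 ± 0.825 in retapamulin libraries, 1.47 ± 0.467 in M5 libraries and 0.899 ± 0.195 in untreated libraries (SD, n = 3 each). It rose by 2.02 ± 0.21 with lefamulin and 1.88 ± 0.21 with retapamulin, while its call in M5 libraries (0.71 ± 0.25) was lost without untreated replicate 1 (0.55) or M5 replicate 1 (0.43). Opposite-strand exons of another gene cover 35.2% of ANKRD37 exon bases.

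**Figure D4:**
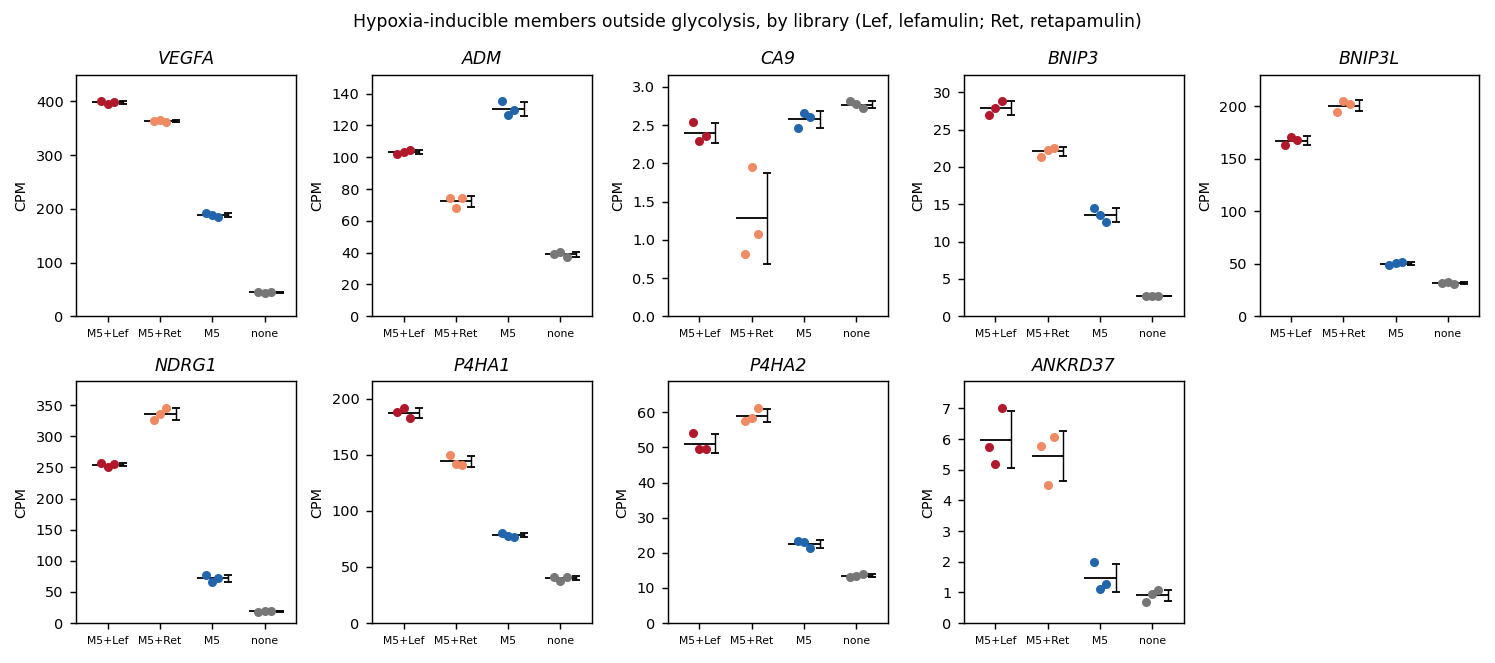
Level in CPM (y axis, linear from 0) of the 9 hypoxia-inducible members outside glycolysis in each library (points) of the lefamulin (M5+Lef), retapamulin (M5+Ret), M5 and untreated (none) groups, with the mean (line) and SD (bar) of 3 libraries. Of these genes, 7 step up from untreated to M5 to drug-treated libraries, ADM peaks in M5 libraries at a mean of 130.4 CPM, and CA9 is low in all groups, at 0.814 to 2.81 CPM.

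Promoter sequences were read for the members because HIFs bind the core letters ACGTG or GCGTG. The RefSeq promoter table (GRCh38.p14, 250 bases before to 50 after each gene start) held 34 of the 39 members, and SLC2A3, SLC16A1, VEGFA, BNIP3L and NDRG1 had no entry. On both strands, ACGTG was found in 14 of the 34 windows (41.2%), where 5900 of 27305 windows of all genes (21.6%) held it. GCGTG was found in 17 (50%), against 36.3% of all windows, and either in 25 (73.5%), against 48.4%. CACGTG holds ACGTG on both strands. The windows of all genes were not limited to genes tested here, whereas all members were tested. A match describes letters in this window only, and no test was made. The 6 windows printed here, trimmed to the 250 bases before the start, belong to members that rose with M5 or the drugs and, for contrast, to CA9, which rose in none of the 3 comparisons. They were chosen after their values were seen, and all 6 hold ACGTG on at least 1 strand. Of the members not printed, HK1, PFKP, P4HA2, PDK1 and SLC16A3 rose in all 3 comparisons and held neither ACGTG nor GCGTG in their windows. GAPDH, whose 2 ACGTG matches lie on opposite strands of the same CACGTG, fell with both drugs. Each printed window runs 5′ to 3′ on the gene's own strand, and capitals mark ACGTG or its reverse complement CACGT.
BNIP3: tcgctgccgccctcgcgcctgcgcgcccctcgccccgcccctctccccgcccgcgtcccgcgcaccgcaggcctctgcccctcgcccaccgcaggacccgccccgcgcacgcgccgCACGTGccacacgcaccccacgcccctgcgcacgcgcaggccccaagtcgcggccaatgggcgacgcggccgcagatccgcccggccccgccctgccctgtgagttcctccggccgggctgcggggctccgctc
ENO2: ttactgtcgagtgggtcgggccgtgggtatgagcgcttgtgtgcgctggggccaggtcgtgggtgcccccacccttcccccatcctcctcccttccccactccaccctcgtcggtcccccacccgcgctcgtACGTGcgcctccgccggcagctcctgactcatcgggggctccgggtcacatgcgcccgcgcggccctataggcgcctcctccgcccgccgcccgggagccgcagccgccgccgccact
P4HA1: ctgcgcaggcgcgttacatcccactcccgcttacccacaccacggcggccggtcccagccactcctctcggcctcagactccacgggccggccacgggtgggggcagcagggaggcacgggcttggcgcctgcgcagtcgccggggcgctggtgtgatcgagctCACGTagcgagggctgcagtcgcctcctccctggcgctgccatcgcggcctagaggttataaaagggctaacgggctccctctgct
ALDOC: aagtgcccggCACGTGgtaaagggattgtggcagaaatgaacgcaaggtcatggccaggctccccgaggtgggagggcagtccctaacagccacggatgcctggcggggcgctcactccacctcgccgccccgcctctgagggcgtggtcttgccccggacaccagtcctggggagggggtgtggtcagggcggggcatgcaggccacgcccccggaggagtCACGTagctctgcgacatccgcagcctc
LDHA: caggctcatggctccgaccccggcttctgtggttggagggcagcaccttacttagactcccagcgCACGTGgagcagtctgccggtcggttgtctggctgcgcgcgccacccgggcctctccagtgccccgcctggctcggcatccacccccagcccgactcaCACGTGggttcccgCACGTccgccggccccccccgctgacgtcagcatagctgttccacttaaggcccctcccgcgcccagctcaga
CA9: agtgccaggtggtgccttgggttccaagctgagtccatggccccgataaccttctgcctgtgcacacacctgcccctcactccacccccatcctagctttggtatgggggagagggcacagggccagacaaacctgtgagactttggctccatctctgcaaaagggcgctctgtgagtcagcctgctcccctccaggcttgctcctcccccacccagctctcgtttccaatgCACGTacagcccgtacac
BNIP3 is read from chr10:131981924-131982173 (minus strand), ENO2 from chr12:6914330-6914579 (plus), P4HA1 from chr10:73096867-73097116 (minus), ALDOC from chr17:28576896-28577145 (minus), LDHA from chr11:18394313-18394562 (plus) and CA9 from chr9:35673678-35673927 (plus). The CACGTG of BNIP3 begins 134 bases before the start, and the ACGTG of ENO2 118 bases before it. LDHA holds 3 runs, beginning 185, 87 and 73 bases before the start, and ALDOC holds 2, at 240 and 28 bases. P4HA1 and CA9 hold 1 each, at 86 and 18 bases. LDHA, with 3 runs, rose 1.55-fold in M5 libraries, ENO2, with 1, rose 3.23-fold, and CA9, also with 1, did not pass the test (0.930-fold).

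The drugs were compared with each other as 1 pair of related compounds, with p-values adjusted over all 14207 genes; the labels state neither dose nor time, and both may differ. Of the 39 members, 16 were higher in lefamulin than in retapamulin libraries, 9 were lower and 14 did not pass the test, where 18.8% of all genes were higher and 21.2% lower. The median difference was 0.06, against 0.01 over all genes. This split moved with the scaling, to 23 higher and 6 lower on library totals alone and to 14 higher and 13 lower on RLE size factors. Some small differences lost their call when 1 library was left out, though their size moved little. The call of PFKFB4 (0.16 ± 0.05) was lost without lefamulin replicate 1 (0.14) or 3 (0.16) or retapamulin replicate 2 (0.15) or 3 (0.14). That of GPI (0.08 ± 0.03) was lost without lefamulin replicate 1 or 3 or any 1 retapamulin replicate (0.06 to 0.08), and that of ENO1 (-0.08 ± 0.03) without lefamulin replicate 1 or 2 or any 1 retapamulin replicate (-0.09 to -0.06).

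The largest differences between the drugs were called on each of the 3 scalings. EGLN3 was 2.68-fold higher with lefamulin than with retapamulin (1.42 ± 0.14, adjusted p = 1.44e-08) and ALDOC 2.04-fold higher (1.03 ± 0.06, adjusted p = 4.46e-12), with every lefamulin library above every retapamulin library for both. CA9 (0.90 ± 0.24), ADM (0.52 ± 0.04), PDK3 (0.39 ± 0.09), P4HA1 (0.38 ± 0.04), BNIP3 (0.34 ± 0.07) and EPAS1 (0.29 ± 0.03) were also higher with lefamulin. SLC2A3 was lower with lefamulin (-1.12 ± 0.18, adjusted p = 2.79e-05), as were ENO2 (-0.46 ± 0.11), NDRG1 (-0.40 ± 0.04), HK1 (-0.36 ± 0.03), PDK1 (-0.28 ± 0.05) and BNIP3L (-0.26 ± 0.04). P4HA1 was higher and P4HA2 (-0.21 ± 0.05, a call lost on library totals alone at -0.12) lower with lefamulin than with retapamulin, and BNIP3 and BNIP3L were likewise split. For several members the difference did not pass the test and its 95% interval was narrow: -0.13 to 0.03 for EGLN1, -0.04 to 0.14 for KDM3A, -0.03 to 0.14 for SLC16A3 and -0.06 to 0.09 for PFKFB3. On library totals alone, KDM3A (0.14), SLC16A3 (0.14) and PFKFB3 (0.10) passed the test, and EGLN1 turned to 0.04. For ANKRD37 the interval was wide, -0.25 to 0.52, so a moderate difference either way could not be detected.

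**Figure D5:**
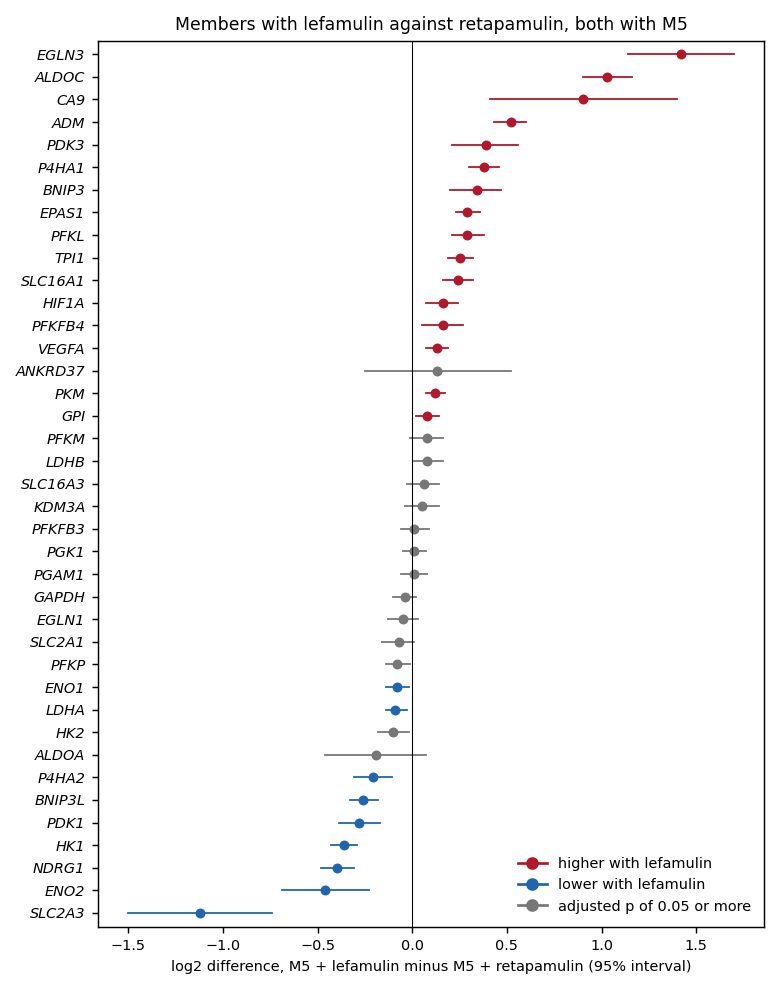
Log2 difference (x axis) of lefamulin minus retapamulin libraries, both with M5, with its 95% interval for each of the 39 members, ordered by size. Red members were higher and blue members lower with lefamulin at an adjusted p under 0.05; EGLN3 at 1.42 and SLC2A3 at -1.12 lie at the ends.

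Against untreated libraries, the drug-treated cells carried most of the set at a raised level. In lefamulin libraries 32 members were higher and 5 lower, where 36.9% of all genes were higher and 37.1% lower, with a median of 1.28 against -0.02 over all genes. In retapamulin libraries 31 were higher and 7 lower, where 37.6% of all genes were higher and 40.9% lower, with a median of 0.89 against -0.06. At least 2-fold rises numbered 22 with lefamulin and 18 with retapamulin. HIF1A stayed above untreated libraries by 1.04 ± 0.04 with lefamulin and 0.89 ± 0.04 with retapamulin, and VEGFA by 3.16 ± 0.03 and 3.03 ± 0.03. NDRG1 stood 13.4-fold and 17.7-fold above untreated libraries, and ENO2 17.96-fold and 24.7-fold. SLC16A1 in lefamulin libraries (0.07 ± 0.04, adjusted p = 0.0918) and EGLN3 in retapamulin libraries (0.20 ± 0.15, adjusted p = 0.215) did not pass the test. The SLC16A1 value passed it without untreated replicate 1 (0.09), and on library totals alone both turned below 0 (-0.10 and -0.05). The calls of GPI and TPI1 in retapamulin libraries (0.07 ± 0.03 and 0.08 ± 0.03) turned to -0.18 each on library totals alone. They were also lost without untreated replicate 1 (0.06 and 0.04) or retapamulin replicate 2 (0.07 and 0.08) or 3 (0.07 each), and that of GPI without untreated replicate 3 (0.06).

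Other genes of the pathway were taken from 4 lists outside the members, whose counts are set beside the shares of all genes called in M5 libraries (28.3% higher, 26.9% lower), with lefamulin (33.6% higher, 34.3% lower) and with retapamulin (34.1% higher, 38.0% lower). Of the 8 HIF pathway regulators tested, 2 rose in M5 libraries, 4 rose and 1 fell with lefamulin, and 4 rose and 1 fell with retapamulin. The 25% that rose in M5 libraries lay near the share of all genes, and 50% rose and 12.5% fell with each drug. ARNT2, an alternative partner of the HIF alpha subunits, averaged 37.5 ± 1.20 CPM in lefamulin libraries, 54.5 ± 1.06 in retapamulin libraries, 8.13 ± 0.372 in M5 libraries and 1.02 ± 0.240 in untreated libraries (SD, n = 3 each), with changes of 2.99 ± 0.11 in M5 libraries, 2.20 ± 0.07 with lefamulin and 2.74 ± 0.07 with retapamulin. VHL, the ubiquitin ligase subunit that binds hydroxylated HIF alpha, rose in M5 libraries (0.74 ± 0.04) and fell with lefamulin (-0.41 ± 0.04) and retapamulin (-0.41 ± 0.04), as HIF1A and EPAS1 did. CITED2, which competes with HIF for its coactivator, rose with lefamulin (1.14 ± 0.06) and retapamulin (1.44 ± 0.06).

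Of the 29 other hypoxia-inducible genes tested, 21 rose and 2 fell in M5 libraries, 16 rose and 4 fell with lefamulin, and 17 rose and 10 fell with retapamulin. The rising shares of 72.4%, 55.2% and 58.6% lay above those of all genes, whereas the falling share with retapamulin, 34.5%, lay near that of all genes. This list too was chosen with earlier results of these data known, so its shares are a description only. The median changes were 0.49, 0.28 and 0.20, against -0.02, -0.00 and -0.05 over all genes. ANGPTL4, a secreted inhibitor of lipoprotein lipase, averaged 25.8 ± 0.566 CPM in lefamulin libraries, 42.9 ± 0.451 in retapamulin libraries, 5.79 ± 0.810 in M5 libraries and 0.341 ± 0.111 in untreated libraries (SD, n = 3 each). It rose by 4.08 ± 0.17 in M5 libraries, 2.16 ± 0.09 with lefamulin and 2.89 ± 0.08 with retapamulin. BHLHE40, a transcriptional repressor, rose by 1.90 ± 0.04 in M5 libraries, 2.51 ± 0.04 with lefamulin and 2.70 ± 0.04 with retapamulin. VLDLR rose in M5 libraries (1.96 ± 0.22), TMEM45A fell (-0.28 ± 0.06) and so did GBE1 (-0.12 ± 0.05), whose call did not survive the removal of untreated replicate 3 (-0.09), M5 replicate 1 (-0.12), M5 replicate 2 (-0.08) or lefamulin replicate 1 (-0.12). With lefamulin and retapamulin against M5 libraries, VLDLR (0.92 ± 0.18 and 1.22 ± 0.18), TMEM45A (0.69 ± 0.06 and 0.20 ± 0.06) and GBE1 (0.36 ± 0.05 and 0.49 ± 0.05) rose. IGFBP3 (-0.90 ± 0.03 and -0.88 ± 0.03) and EFNA1 (-0.69 ± 0.04 and -1.05 ± 0.04) fell with both drugs, after rises in M5 libraries (1.29 ± 0.03 and 1.59 ± 0.04).

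Of the 20 other glycolysis and pyruvate genes tested, 8 rose and 6 fell in M5 libraries, 8 rose and 9 fell with lefamulin, and 7 rose and 9 fell with retapamulin. These were 40%, 40% and 35% higher and 30%, 45% and 45% lower, and the median changes of 0.05, -0.03 and -0.05 lay near those of all genes. PFKFB2, another enzyme of the PFKFB family, averaged 208 ± 1.46 CPM in lefamulin libraries, 208 ± 5.93 in retapamulin libraries, 43.6 ± 1.73 in M5 libraries and 52.8 ± 3.76 in untreated libraries (SD, n = 3 each) and rose with the drugs as PFKFB4 did (2.25 ± 0.05 with lefamulin and 2.26 ± 0.05 with retapamulin). PC, which turns pyruvate into oxaloacetate, fell in M5 libraries (-0.33 ± 0.07), with lefamulin (-0.48 ± 0.07) and with retapamulin (-1.33 ± 0.07). GPD2 of the glycerol phosphate shuttle rose in M5 libraries (0.77 ± 0.04) and fell with lefamulin (-0.75 ± 0.04) and retapamulin (-0.75 ± 0.04). Of the 8 genes of the pentose phosphate pathway, which branches from glycolysis to make NADPH, 3 rose and 4 fell in M5 libraries, 3 rose and 3 fell with lefamulin, and 4 rose and 3 fell with retapamulin. These were 37.5%, 37.5% and 50% higher and 50%, 37.5% and 37.5% lower. Both shares with lefamulin and the falling share with retapamulin lay near those of all genes. The median changes were -0.09, -0.02 and 0.08. PGD, an oxidative enzyme of the pathway, changed by 0.16 ± 0.03 in M5 libraries, 0.79 ± 0.03 with lefamulin and 0.86 ± 0.03 with retapamulin, its M5 call being lost on library totals alone (0.04).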

How the data were processed

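Counts per gene were deposited by the authors as whole numbers for 22545 gene symbols in 12 libraries, and the authors also deposited FPKM, which equal count over gene length and library total. HISAT2 and HTSeq are named in the submitters' processing notes; neither versions nor the build or strand setting appear in the sources used here. Per the labels, libraries were made with the VAHTS Universal V6 kit; the extraction text describes mouse epidermis, which does not match HaCaT, and was not used. The 3 libraries of a group differed beyond sampling noise.

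Counts were filtered with filterByExpr and fitted in edgeR 4.0.16 (R 4.3.3; TMM, quasi-likelihood, all 12 libraries, 4 groups) for 6 comparisons, with Benjamini-Hochberg adjustment over 14207 genes. The scripts were tested on simulated data. Alternatives used library totals alone or RLE size factors, other filters, only the groups compared, a replicate block, DESeq2 1.42.0, limma 3.58.1 on log2(FPKM + 1) and leaving out each library. Same-numbered libraries did not deviate together, so no block entered the fit. The members and lists were chosen with earlier results of these data known. All members are named; from each other list, the 2 called genes that rose most and the 2 that fell most in each comparison could be named; some of these are not reported here. HIF3A and PDK4 stood on these lists, and their values are not reported here. Overlapping exons come from GENCODE v29, used only for which genes overlap and for exon bases. Promoter sequences are from RefSeq.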

Additional observations from a re-analysis of the deposited data

How the results depend on the processing

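Scaling by library totals alone moved the median change of all genes from -0.02 to -0.14 for M5 against untreated libraries, from -0.05 to -0.19 for retapamulin against M5, from -0.02 to -0.18 and from -0.06 to -0.31 for lefamulin and retapamulin against untreated libraries, and members with small changes moved with it. In M5 against untreated libraries, the 34 members called higher and 2 lower became 31 higher and 4 lower on library totals alone, and 29 higher and 4 lower by limma on FPKM. Leaving out 1 library gave 33 to 34 members higher and 1 to 3 lower in M5 against untreated libraries, 23 higher and 8 to 11 lower for lefamulin against M5, 23 higher and 15 lower for retapamulin against M5, and 14 to 16 higher and 8 to 11 lower for lefamulin against retapamulin. Against untreated libraries the same gave 32 to 33 higher and 5 lower with lefamulin, and 29 to 31 higher and 7 lower with retapamulin. The fit with the replicate block gave 34 higher and 3 lower in M5 libraries; same-numbered libraries correlated at -0.14 to 0.18 and 5 of 12 libraries correlated best with their own number, so the numbers were not taken as pairs. No alternative was left unrun. The cause of the changes was not tested.

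On library totals alone these values changed sign. In M5 against untreated libraries they were PFKM (-0.0039) and GAPDH (-0.11). For lefamulin against M5 it was LDHA (-0.01), and for retapamulin against M5 ENO1 (-0.12), PKM (-0.05) and LDHA (-0.02). For lefamulin against retapamulin they were EGLN1 (0.04), PFKP (0.01), GAPDH (0.05), ENO1 (0.01), LDHA (0.0033) and SLC2A1 (0.02). Against untreated libraries they were GPI (-0.01) and SLC16A1 (-0.10) with lefamulin and EGLN3 (-0.05), GPI (-0.18), TPI1 (-0.18) and PGAM1 (-0.04) with retapamulin. The same values changed sign by limma on FPKM, where PFKM was -0.0037, SLC2A1 0.01, SLC16A1 -0.09, EGLN3 -0.03 and TPI1 -0.17, and the others were equal to 2 decimals. For lefamulin against retapamulin, PFKFB3 (-0.02), PGK1 (-0.03) and PGAM1 (-0.02) changed sign both on RLE size factors and by DESeq2, PFKFB3 (-0.0040), PGK1 (-0.0029) and PGAM1 (-0.03) without lefamulin replicate 1, and PFKFB3 (-0.0047) without retapamulin replicate 1; the highest PFKFB3 value on leaving out a library was 0.03, without lefamulin replicate 2. ENO1 with retapamulin against M5 was -0.01 without M5 replicate 3. GAPDH in M5 against untreated libraries was -0.01 with a filter of 1 CPM in 3 libraries and -0.02 without untreated replicate 1.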
